A study of Mus musculus with 9 samples.

Results

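The 9 globin genes described here are the adult alpha genes Hba-a1 and Hba-a2, the alpha pseudogene Hba-ps4, the adult beta genes Hbb-bs and Hbb-bt, the embryonic beta-like genes Hbb-y and Hbb-bh1, and their neighbours Hbb-bh2 and Hbb-bh3. They were taken by name from the 24296 genes counted in single cells of whole knee joints, and all 9 were present. The sick group held 5 female 129/Sve mice, numbered 1, 3, 4, 5 and 6. They were pre-sensitized to methylated bovine serum albumin (mBSA) and then received mBSA into the left knee, which triggers an antigen-induced arthritis. The healthy group held 4 female 129/Sve mice, numbered 1 to 4, whose left knee received phosphate-buffered saline (PBS), and the labels do not say whether these mice were sensitized. The labels give the age as 8 weeks, and all mice were killed 1 week after the trigger. The sick mice's arthritis had been checked by immunohistochemistry, and in both groups the whole left joint was made into a cell suspension for Seq-Well, in which each cell sits in a small well with a barcoded bead that binds its poly(A) RNA. The deposited matrix holds 16751 cells, 1397 to 3850 from each sick mouse and 877 to 1400 from each healthy mouse.

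Haemoglobin carries oxygen in red blood cells as a tetramer of a pair of alpha-type and a pair of beta-type globin chains, each with a haem group. The genes of each type lie in a cluster that is read in the order of development: embryonic genes in the primitive red cells of the yolk sac, adult genes in the red cells made by fetal liver and bone marrow. Globin messenger RNA makes up most of the messenger RNA of a late red cell precursor, and RNA freed from broken red cells can reach the wells of other cells.

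In the GENCODE M21 annotation of GRCm38, Hba-a1 (chr11:32283511-32284465) and Hba-a2 (chr11:32296489-32297298) lie on the plus strand of chromosome 11, and the pseudogene Hba-ps4 (chr17:26286363-26287061) lies on the minus strand of chromosome 17. The beta cluster lies on the minus strand of chromosome 7. It runs from Hbb-y (chr7:103851749-103853216) and Hbb-bh1 (chr7:103841637-103843164) through Hbb-bh2 (chr7:103839124-103840520) and the pseudogene Hbb-bh3 (chr7:103832628-103833723) to Hbb-bs (chr7:103826534-103828096) and Hbb-bt (chr7:103812524-103813996). The reference is of the C57BL/6J strain, not of 129/Sve.

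How far reads of one gene can be told from reads of another bears on the ratios below, and most on those within an adult pair. Alpha to beta sums both adult copies of each type. The last 60 coding bases of each gene, nearest to the end that poly(A) capture reads, are shown in the 5′ to 3′ direction. Capitals mark bases that differ from Hbb-bs.
Hbb-bs: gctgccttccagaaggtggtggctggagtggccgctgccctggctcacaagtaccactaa
Hbb-bt: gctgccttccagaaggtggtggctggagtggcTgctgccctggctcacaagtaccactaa
Hbb-y: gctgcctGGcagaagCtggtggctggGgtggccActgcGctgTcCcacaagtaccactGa
Hbb-bh1: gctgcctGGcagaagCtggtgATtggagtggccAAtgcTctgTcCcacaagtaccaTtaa
Hbb-bh2: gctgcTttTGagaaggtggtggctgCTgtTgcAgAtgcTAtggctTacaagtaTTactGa
In the alpha genes the capitals mark bases that differ from Hba-a1.
Hba-a1: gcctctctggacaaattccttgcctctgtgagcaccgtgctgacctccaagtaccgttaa
Hba-a2: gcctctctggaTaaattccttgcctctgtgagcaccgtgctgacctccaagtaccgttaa

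In the reference, which is of another strain than these mice, the adult copies were close to identical. Over the whole coding sequence Hba-a1 and Hba-a2 differed at 1 of 429 bases, and Hbb-bs and Hbb-bt at 1 of 444. The split of counts within each adult pair is therefore uncertain, since how reads matching both copies were assigned is not given in the sources used here. Sequences of the mice's own strain were not compared, so how far their adult copies differ is not known here. The other genes were set apart. Hbb-y and Hbb-bh1 matched Hbb-bs at 74.3% and 74.9% of the aligned coding bases and each other at 76.4%, and Hbb-bh2 matched Hbb-bs at 71.9%. The pseudogenes are shown by the 60 aligned bases nearest the coding 3′ end, with capitals where they differ from the adult gene of their type (coding bases 361 to 420 of Hba-a1 for Hba-ps4, and 382 to 441 of Hbb-bs for Hbb-bh3).
Hba-ps4: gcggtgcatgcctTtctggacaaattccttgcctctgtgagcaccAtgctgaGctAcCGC
Hbb-bh3: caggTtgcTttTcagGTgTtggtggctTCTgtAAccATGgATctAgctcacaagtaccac
Hba-ps4 differed from Hba-a1 at 7 of these bases and matched it at 84.4% of the aligned bases overall. Hbb-bh3 differed from Hbb-bs at 17 bases of its stretch and matched it at 72.2% overall.

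Library totals ran from 897477 to 4675909 counts per joint, and the labels name no sequencing batch, so a batch that followed the groups cannot be told apart from them. Healthy mice 2, 3 and 4 stood apart from the other 6 mice. Their cells with 30% or more globin counts carried 6.25% to 10.02% mitochondrially encoded and 2.44% to 6.14% ribosomal RNA-like counts, against 2.05% to 4.90% and 0.600% to 1.35% in sick mice and 3.88% and 1.26% in healthy mouse 1. Many of the results that rest on these 3 mice are given with and without them. Cells were gated by markers into 12 classes, most of them of marrow or blood (3262 neutrophil, 2215 erythroid and 769 monocyte or macrophage cells), while fibroblasts and osteoblasts of the joint itself came to 71 cells each. Between libraries 8 cell barcodes were shared, by 16 cells.

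The globin genes took 4520422 of 19883828 counts, or 22.7%, and 16743 of the 16751 cells held at least 1 globin count. By joint, their summed share was 10.2%, 15.8%, 21.7%, 23.0% and 27.9% in sick mice 1, 3, 4, 5 and 6, and 17.6%, 35.3%, 39.7% and 37.4% in healthy mice 1 to 4. Healthy mouse 1 lay within the sick range and the other healthy mice above it. The sum is given with no test. The values below are counts as deposited, not scaled by gene length, so a ratio between genes compares their counts and not their numbers of molecules.

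Hbb-bs, an adult beta gene, was the most counted member in every joint. It took 7.10%, 10.9%, 15.8%, 15.5% and 19.1% of the counts in sick mice, against 12.2%, 23.0%, 26.5% and 25.1% in healthy mice. The groups overlapped through healthy mouse 1, and the mean was 13.7% ± 4.70 in sick mice (SD, n = 5) and 21.7% ± 6.50 in healthy mice (SD, n = 4). The log2 fold change of Hbb-bs was -1.02 ± 0.43 (SE, adjusted p = 0.301 in edgeR's quasi-likelihood test), so it did not pass.

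Hbb-bt, the second adult beta gene, took 0.943%, 1.46%, 1.76%, 2.12% and 2.48% of the counts in sick mice, against 1.78%, 3.53%, 3.78% and 3.01% in healthy mice. Hba-a1, which codes for the adult alpha chain, took 1.20%, 1.89%, 1.97%, 2.95% and 3.57% in sick mice and 1.80%, 4.19%, 5.17% and 5.04% in healthy mice. Its copy Hba-a2 took 0.763%, 1.22%, 1.18%, 1.92% and 2.27% in sick mice and 1.21%, 3.03%, 3.65% and 3.43% in healthy mice. In each of these 3 genes the groups overlapped through healthy mouse 1 alone, and in each sick mouse 1 was lowest. Their log2 fold changes were -1.13 ± 0.37 for Hbb-bt, -1.17 ± 0.42 for Hba-a1 and -1.31 ± 0.42 for Hba-a2, with adjusted p of 0.174, 0.230 and 0.174 in edgeR.

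**Figure D1:**
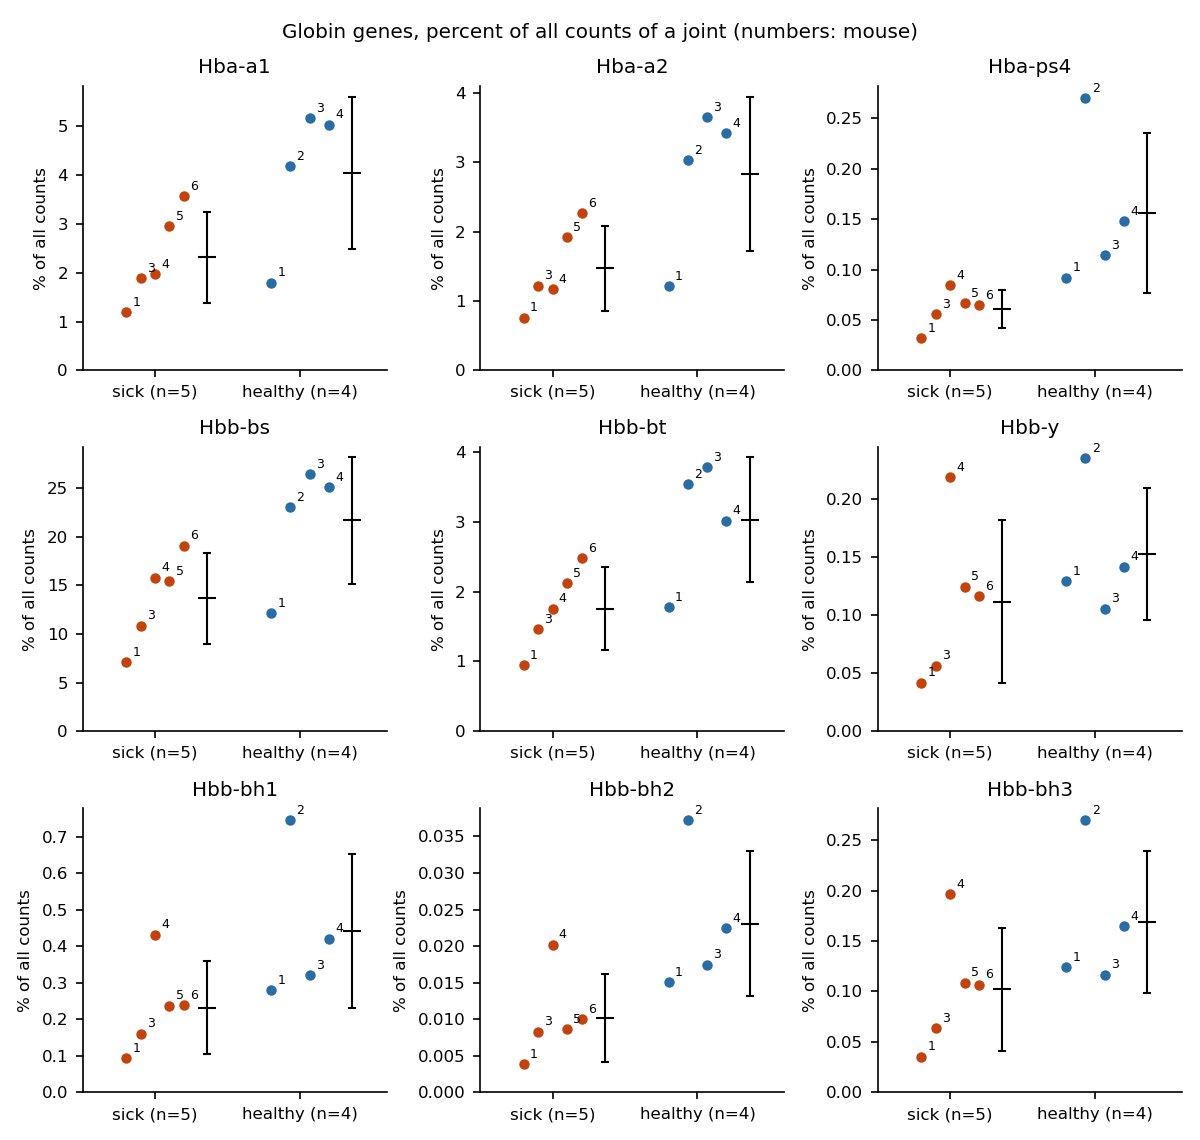
Share of all counts of a joint (%, vertical axis) taken by each of the 9 globin genes, 1 point per mouse with its number, 5 sick mice left and 4 healthy mice right; the bar beside each group is the mean ± SD. In Hba-ps4 the sick mice all lie below the healthy mice, and in the adult genes healthy mouse 1 lies among the sick mice.

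Among the embryonic genes, Hbb-bh1 was counted more than Hbb-y in every joint. Hbb-bh1 took 0.0934%, 0.161%, 0.432%, 0.238% and 0.238% of the counts in sick mice, against 0.281%, 0.747%, 0.320% and 0.421% in healthy mice. Hbb-y took 0.0419%, 0.0565%, 0.219%, 0.125% and 0.116% in sick mice, against 0.129%, 0.235%, 0.106% and 0.142% in healthy mice. Sick mouse 4 was highest of its group in both and lay within the healthy range. Neither passed: the log2 fold change was -1.25 ± 0.39 for Hbb-bh1 (adjusted p = 0.165) and -0.75 ± 0.40 for Hbb-y (adjusted p = 0.429) in edgeR.

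Hbb-bh3, the beta pseudogene, took 0.0356% to 0.196% of the counts in sick mice and 0.117% to 0.270% in healthy mice. Hbb-bh2 was the least counted member, with 94 to 388 counts in a sick joint and 229 to 334 in a healthy joint, or 0.00387% to 0.0202% of the counts in sick and 0.0151% to 0.0372% in healthy mice. The groups overlapped in both genes. Hbb-bh3 had a log2 fold change of -1.03 ± 0.40 (adjusted p = 0.264) and Hbb-bh2 of -1.51 ± 0.38 (adjusted p = 0.0859) in edgeR.

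Hba-ps4 was the member that passed the test. It took 0.0323%, 0.0561%, 0.0843%, 0.0670% and 0.0651% of the counts in sick mice, against 0.0921%, 0.270%, 0.114% and 0.148% in healthy mice. Every sick mouse lay below every healthy mouse. Among all tested genes 2.0% did so, counted after TMM scaling of the libraries and not on unscaled percents. It fell by 1.68 on the log2 scale (SE 0.33, adjusted p = 0.0208 in edgeR). The call did not hold without any one of sick mouse 3 (adjusted p = 0.0719), sick mouse 5 (0.0622), healthy mouse 2 (0.113) or healthy mouse 4 (0.0632), and the adjusted p ranged from 0.00286 to 0.113 over the 9 fits that left out 1 mouse. With healthy mouse 1 as the lone healthy mouse, assumed to vary like the sick ones, the log2 fold change was -0.46 (adjusted p = 0.8001).

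So 1 of the 9 members passed, lower in sick mice, while 0.93% of the 10323 genes tested passed in either direction and 0.3% were lower. All 9 fold changes were below 0 (51.9% of all tested genes), and 8 of 9 had an unadjusted p under 0.05 with a lower value (6.37% of all tested genes). The median log2 fold change was -1.17 over the members and -0.02 over all tested genes. Without TMM scaling of the libraries the median of all genes moved to 0.29, that of the members to -0.80, and all 9 members stayed below 0. The count of members passing was 5 without healthy mouse 1 (Hba-a1, Hba-a2, Hba-ps4, Hbb-bt and Hbb-bh2), 2 without sick mouse 4, and 0 without sick mouse 3, sick mouse 5, healthy mouse 2 or healthy mouse 4. These summed values cannot tell fewer globin-making cells, more cells of other kinds and less globin RNA per cell apart. Without healthy mice 2, 3 and 4 the direction turned for Hba-a1 (0.53), Hba-a2 (0.44), Hbb-bs (0.33) and Hbb-bt (0.14), each with an adjusted p of 0.829 or more in edgeR.

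Globin-rich cells, those with 30% or more of their counts from the 9 genes, numbered 5558 of 16751. There were 252, 722, 416, 623 and 986 in sick mice 1, 3, 4, 5 and 6, and 211, 523, 995 and 830 in healthy mice 1 to 4. Their mean number was 599.8 in sick and 639.8 in healthy mice, while cells of all kinds averaged 2440 and 1138. What set these cell numbers was not tested. As a share of cells, globin-rich cells averaged 25.2% ± 10.1 in sick mice (SD, n = 5) and 54.7% ± 23.6 in healthy mice (SD, n = 4). The difference of -29.5 percentage points had a two-sided exact permutation p of 0.0476, where the 126 splits of the mice allow no p below 0.00794. Healthy mouse 1, at 20.1%, lay within the sick range of 12.03% to 38.0%, and healthy mice 2 to 4 lay above it at 59.6% to 71.1%. Without any one of the 5 sick mice or of healthy mice 2, 3 and 4 the difference was -32.7 to -24.0 points with a p of 0.0857 to 0.114, and without healthy mouse 1 it was -41.0 points with a p of 0.0179. Set against healthy mouse 1 alone, sick mice were higher by 5.14 percentage points.

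The share also moved with where the line was drawn. With the line at 20% globin counts the difference was -33.9 points (exact permutation p = 0.0635) and at 50% it was -6.44 points (p = 0.151). Just inside the line, cells with 30% to 31% globin counts numbered 7 to 29 in a sick and 2 to 26 in a healthy mouse, and just outside it, at 29% to 30%, they numbered 5 to 30 and 3 to 28. Counting only globin-rich cells with 2 or more of 11 erythroid markers, a list without globin genes, gave -23.3 points (exact permutation p = 0.0556). All 11 markers had counts in the globin-rich cells of every mouse. Their summed level was 191 to 219 per 10000 non-globin counts in sick mice, and 246, 127, 130 and 92.9 in healthy mice 1 to 4. So the marker level in globin-rich cells was lowest in healthy mice 2, 3 and 4, which had the largest shares of such cells, and the part this has in the difference was not tested.

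Inside the globin-rich cells, a set drawn on the members' own sum, that sum was 49.5% to 54.8% of counts in sick mice and 47.7% to 58.2% in healthy mice, and the median cell was at 46.4% to 53.4% and 41.6% to 54.3%. The alpha to beta ratio, the counts of Hba-a1 and Hba-a2 over those of Hbb-bs and Hbb-bt, was 0.288, 0.294, 0.205, 0.308 and 0.297 in sick mice, against 0.248, 0.285, 0.298 and 0.311 in healthy mice. Apart from sick mouse 4 and healthy mouse 1 the joints lay between 0.285 and 0.311. The log2 difference of -0.05 had an exact permutation p of 0.818.

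The ratio of embryonic Hbb-y and Hbb-bh1 to adult beta globin varied more between mice than between groups. Per 1000 adult beta counts there were 19.7, 20.6, 42.0, 23.1 and 18.1 embryonic counts in sick mice, against 35.6, 38.8, 14.5 and 20.8 in healthy mice. Sick mouse 4 and healthy mice 1 and 2 lay well above the others. The means were 24.7 ± 9.84 in sick mice (SD, n = 5) and 27.4 ± 11.7 in healthy mice (SD, n = 4), with an exact permutation p of 0.786 (adjusted p = 0.818 over the 4 ratios tested).

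Hba-a1 to Hba-a2 was the ratio that differed. It was 1.53, 1.498, 1.62, 1.504 and 1.55 in sick mice, against 1.45, 1.38, 1.41 and 1.46 in healthy mice, so every sick mouse lay above every healthy mouse. The log2 difference was 0.11 (exact permutation p = 0.00794, adjusted p = 0.0318 over the 4 ratios). It was 0.09 with the line at 50% globin counts, where the adjusted p was 0.127. Without 1 mouse it stayed between 0.10 and 0.13 with adjusted p of 0.0714 to 0.143. With 8 mice, an adjusted p under 0.05 is out of reach where only 1 of the 4 ratios differs. The adult copies differ at 1 coding base in the reference. Bases outside the coding sequence and sequences of the mice's own strain were not compared. Whether this ratio reflects read assignment or expression was not tested. Hbb-bt to Hbb-bs, the same kind of ratio in the beta pair, was 0.118 to 0.146 in sick mice and 0.121 to 0.159 in healthy mice (exact permutation p = 0.532).

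**Figure D2:**
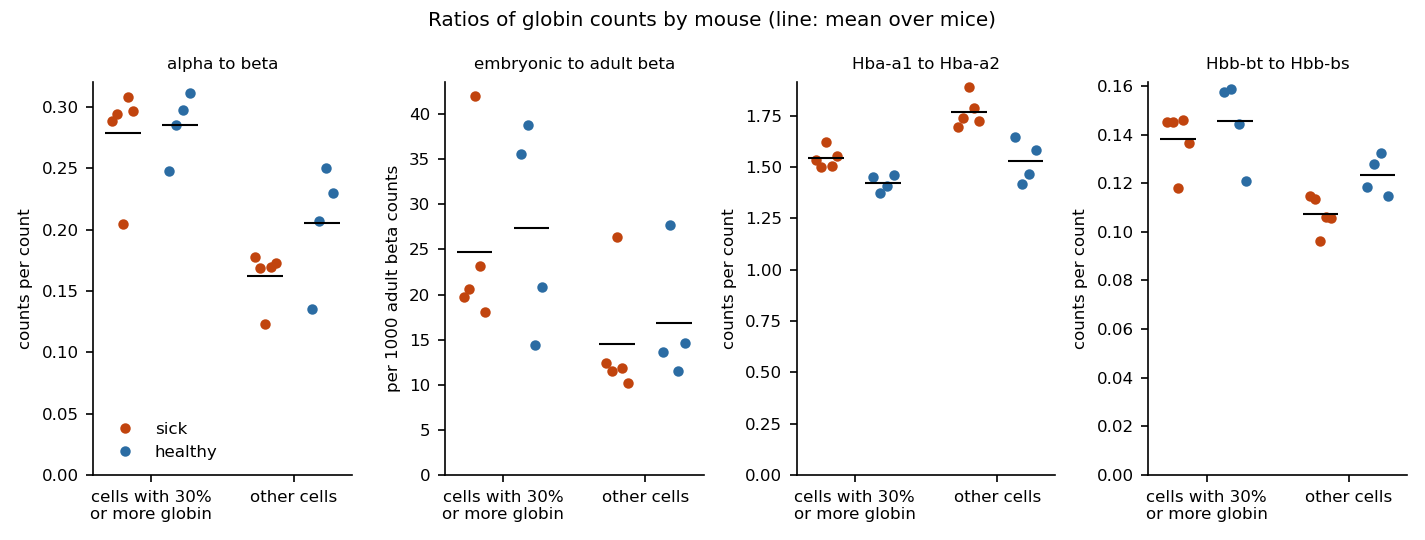
Ratios of summed globin counts per mouse in cells with 30% or more globin counts and in all other cells (1 point per mouse, sick left and healthy right, line at the mean); vertical axes are counts per count, or counts per 1000 adult beta counts for the embryonic genes. In globin-rich cells only Hba-a1 to Hba-a2 separates the 5 sick from the 4 healthy mice. In other cells it separates them too, and Hbb-bt to Hbb-bs does so narrowly. Alpha to beta, embryonic to adult and Hbb-bt to Hbb-bs are lower in other cells of every mouse.

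The minor genes followed the mouse. Per 1000 counts of Hbb-bs and Hbb-bt in globin-rich cells, Hbb-bh1 had 13.5, 15.3, 27.8, 15.1 and 12.2 in sick mice, against 24.4, 29.4, 10.9 and 15.5 in healthy mice. Hbb-y had 6.18, 5.35, 14.2, 8.02 and 5.95 in sick mice, against 11.2, 9.39, 3.61 and 5.26 in healthy mice. In both, sick mouse 4, healthy mouse 1 and healthy mouse 2 held the 3 highest values.

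The same 3 mice were highest in the remaining minor genes. The pseudogene Hbb-bh3 had 12.7 per 1000 adult beta counts in sick mouse 4 and 5.33 to 6.89 in the other sick mice. In healthy mice it had 11.0 (mouse 1), 10.9 (mouse 2), 3.95 (mouse 3) and 6.09 (mouse 4). Hbb-bh2 had 1.23 in sick mouse 4 and 1.34 and 1.45 in healthy mice 1 and 2, while the other sick mice had 0.508 to 0.781, healthy mouse 3 had 0.604 and healthy mouse 4 had 0.855. Hba-ps4, set against Hba-a1 and Hba-a2 on another chromosome, had 27.6 in sick mouse 4 and 31.5 and 37.6 in healthy mice 1 and 2, while the other sick mice had 11.4 to 18.5 per 1000, healthy mouse 3 had 13.1 and healthy mouse 4 had 17.6. The highest mouse exceeded the lowest by 2.71-fold in Hbb-bh1 and 3.93-fold in Hbb-y, and by values between these in Hba-ps4, Hbb-bh2 and Hbb-bh3. No correlation is given, since the 3 mice formed a cluster of their own.

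**Figure D3:**
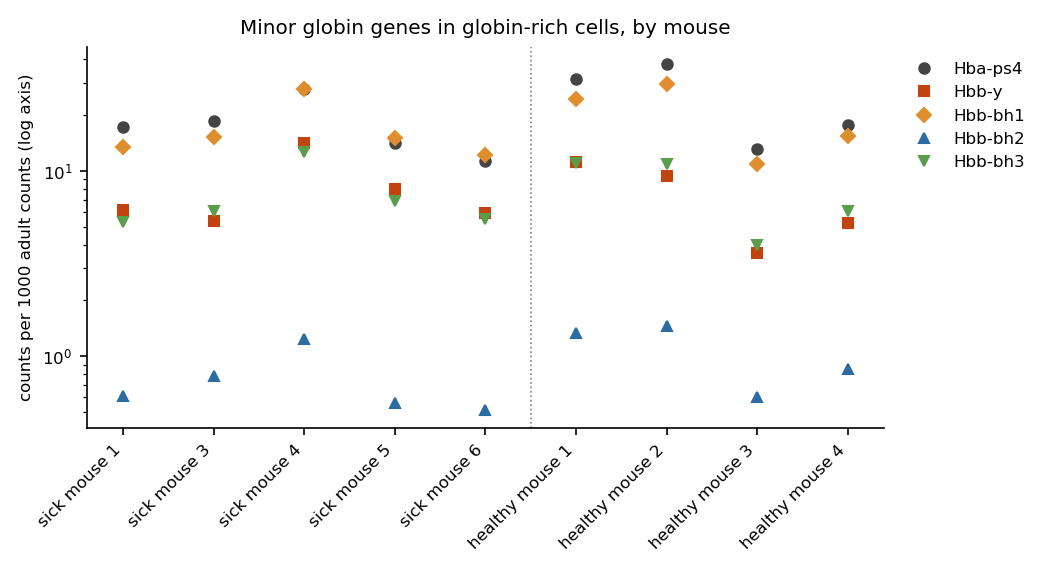
Counts of the 5 minor globin genes per 1000 adult counts (Hba-a1 and Hba-a2 for Hba-ps4, Hbb-bs and Hbb-bt for the others) in globin-rich cells, by mouse, on a log axis; the dotted line parts the 5 sick mice, left, from the 4 healthy mice. All 5 genes are highest in sick mouse 4 and healthy mice 1 and 2.

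Cells below the line held globin counts too: 27.4% ± 7.52 of all globin counts of a joint lay outside globin-rich cells in sick mice (SD, n = 5) and 16.2% ± 6.66 in healthy mice (SD, n = 4). In these 11193 other cells the 9 genes took 4.35%, 6.06%, 9.30%, 7.08% and 9.31% of the counts in sick mice, against 5.85%, 13.8%, 17.8% and 13.9% in healthy mice. Healthy mouse 1 lay within the sick range and the other healthy mice above it. The median other cell was at 2.10% to 6.69% in sick mice and at 4.36%, 14.3%, 21.0% and 12.2% in healthy mice 1 to 4. Erythroid markers in these cells were at 20.7 to 43.6 per 10000 non-globin counts in sick mice and 24.2 to 54.0 in healthy mice, and their part in the globin level was not tested.

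The other cells were set by the members' own sum, so tests of the members in them are limited by that line and are given as a description. Of the members, Hba-ps4 alone passed in the other cells, falling by 1.71 on the log2 scale (SE 0.33, adjusted p = 0.0227 in edgeR), against 0.695% of the 9931 tested genes in either direction and 0.181% lower. It had 146 ± 54.5 CPM (counts scaled to a common library size, with TMM) in other cells of sick mice (SD, n = 5), against 480 ± 273 in those of healthy mice (SD, n = 4), and the groups overlapped. The call did not hold without sick mouse 3, sick mouse 5, healthy mouse 2, healthy mouse 3 or healthy mouse 4 (adjusted p of 0.0604, 0.0738, 0.139, 0.0752 and 0.0737), while 5 members passed without healthy mouse 1 and 2 without sick mouse 4. Against healthy mouse 1 alone the log2 fold change of Hba-ps4 was -0.25 and those of the other 8 members were 0.22 to 0.64. Hba-a2 came next at -1.45 ± 0.36 (adjusted p = 0.0843). The other 7 members had log2 fold changes of -1.21 to -0.55.

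Ratios between members in the other cells were set against those in the globin-rich cells of the same mouse. Alpha to beta was 0.177, 0.169, 0.123, 0.170 and 0.173 in other cells of sick mice and 0.135, 0.207, 0.2502 and 0.230 in those of healthy mice. It was lower than in globin-rich cells in 9 of 9 mice, at 0.635 times their ratio. The embryonic to adult beta ratio was 0.598 times that of globin-rich cells and Hbb-bt to Hbb-bs 0.810 times, both lower in 9 of 9 mice, and Hba-a1 to Hba-a2 was 1.11 times and higher in 9 of 9. Each had an exact sign-flip permutation p of 0.00391, the smallest that 9 mice allow, and the same after adjustment over the 4 ratios. The line between the cell sets was drawn on the same counts as the ratios. Between the groups, Hba-a1 to Hba-a2 in other cells was 1.69 to 1.89 in sick and 1.42 to 1.65 in healthy mice, with no overlap. Hbb-bt to Hbb-bs there was 0.0963 to 0.1147 in sick and 0.1148 to 0.133 in healthy mice, so the groups only just parted. These group differences in other cells were not tested.

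The 3 lower ratios were lower also in cells gated by markers of other lineages. The globin-rich cells they were set against were still chosen on globin counts, and some gated cells were themselves globin-rich. In all cells gated by markers of other lineages, the log2 difference from globin-rich cells was -0.35 for alpha to beta and -0.51 for embryonic to adult beta (exact sign-flip adjusted p = 0.00521 each) and -0.20 for Hbb-bt to Hbb-bs (adjusted p = 0.00781). In those of them under 30% globin counts the log2 differences were -0.82, -1.11 and -0.34 (adjusted p = 0.00521 each). For Hba-a1 to Hba-a2 the log2 difference turned to -0.08 in all gated cells (adjusted p = 0.00521), to -0.04 in gated cells under 30% (adjusted p = 0.117) and to -0.06 in cells under 10% globin counts (adjusted p = 0.0625).

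Binned by globin share, alpha to beta at under 2% globin counts was 0.0723 over the 4 sick mice and 0.0755 in the 1 healthy mouse with at least 10 such cells. At 2% to 5% it was 0.0909 and 0.102, at 10% to 20% 0.201 and 0.222, at 30% to 40% 0.241 and 0.265, and at 70% to 80% 0.309 and 0.308 (means over sick, then over healthy mice). The embryonic to adult ratio was lower under 20% globin counts and changed little from 20% to 80%. It was 3.36 per 1000 adult beta counts in sick and 1.89 in healthy mice at 2% to 5%, 11.25 and 8.41 at 5% to 10%, and 19.7 in each at 10% to 20%. In each bin from 30% to 80% it was 23.3 to 25.6 in sick and 25.04 to 29.9 in healthy mice. Above 80% it was 24.2 in 3 sick mice and 43.1 in 2 healthy mice, with 58 and 30 cells in all. Erythroid markers were at 13.9 and 13.4 per 10000 non-globin counts at 2% to 5%, and at 295 and 243 at 70% to 80%. The bins are cut on the globin counts and are given as a description.

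**Figure D4:**
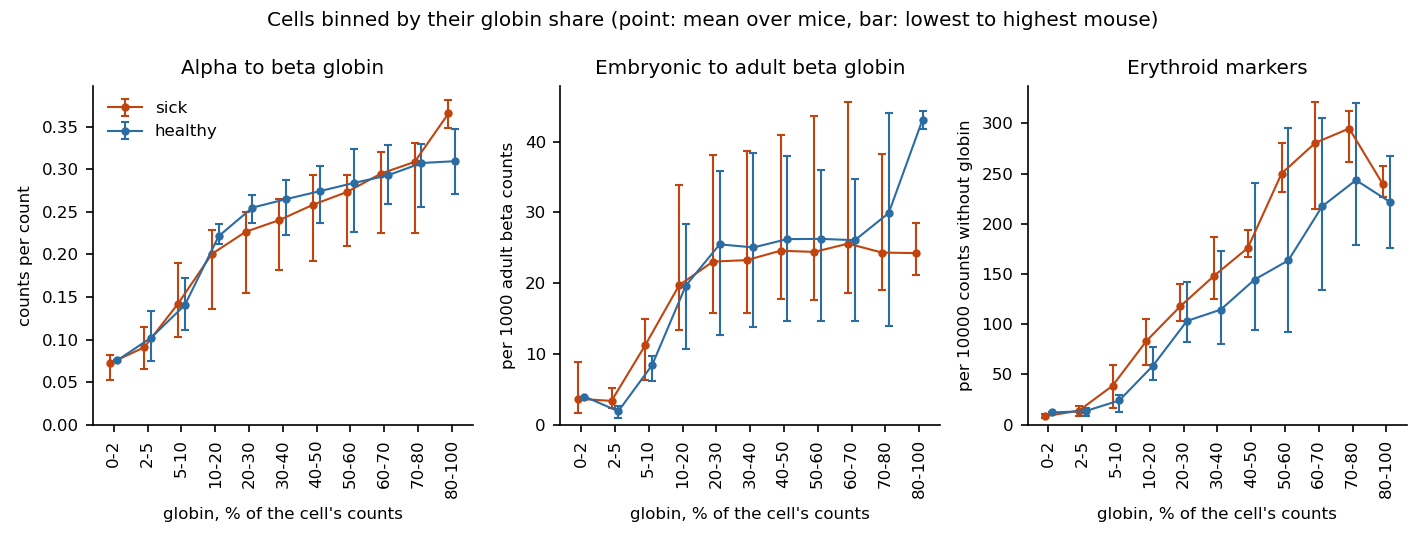
Alpha to beta ratio, embryonic counts per 1000 adult beta counts, and erythroid marker counts per 10000 non-globin counts in cells binned by the share of their counts from the 9 globin genes (%, horizontal axis); points are means over mice with at least 10 cells in the bin, bars the lowest and highest mouse, sick in red and healthy in blue. Alpha to beta climbs over the whole range, while the embryonic ratio changes little between 20% and 80% globin counts.

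Marker gates that use no globin gene give the level in cells that should not make globin. The median neutrophil cell was at 2.16% to 6.45% globin counts in sick mice and at 4.59%, 11.2%, 31.4% and 16.9% in healthy mice 1 to 4. Granulocyte progenitors were at 1.96% to 5.20% in sick mice and 3.84% to 27.7% in healthy mice, and monocytes or macrophages at 1.89% to 6.48% in sick mice and 4.49% to 17.9% in 3 healthy mice. The erythroid gate lay far above these, with medians of 39.9% to 54.4% in sick mice and 42.7% to 51.5% in healthy mice, and 1709 of its 2215 cells were globin-rich. Globin-rich cells also made up 377 of the 3262 neutrophil cells, and doublets were not removed.

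**Figure D5:**
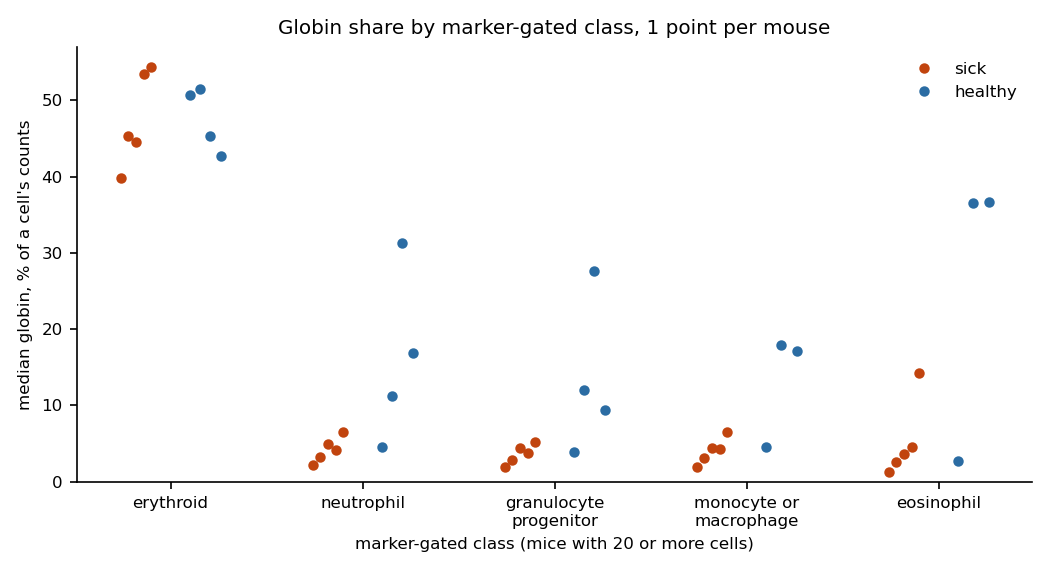
Median share of a cell's counts from the 9 globin genes (%) in 5 marker-gated classes, 1 point per mouse with at least 20 cells, sick left and healthy right within each class. The erythroid gate lies at 39.9% to 54.4% in both groups, and in the other classes the sick mice lie mostly below 6.5% with most healthy mice above them.

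The alpha to beta ratio of eosinophil-gated cells is given as an observation made after the values were seen, with no test. They had a ratio of 0.269 to 0.343 in sick mice and 0.266 to 0.286 in 3 healthy mice. Neutrophil cells had 0.170 to 0.233 in sick and 0.138 to 0.293 in healthy mice, granulocyte progenitors 0.112 to 0.189 and 0.116 to 0.290, and erythroid cells 0.204 to 0.3002 and 0.248 to 0.292. In sick mice the eosinophil range lay above those of neutrophils and granulocyte progenitors and overlapped that of erythroid cells, and in healthy mice it lay within all 3. The median eosinophil cell was at 1.30% to 14.2% globin counts in sick and 2.78% to 36.7% in healthy mice. The ratio sums counts over a gate's cells, so cells with many globin counts weigh most. Globin-rich cells were 62 of 348 eosinophil cells (17.8%), against 11.6% of neutrophil and 7.72% of granulocyte progenitor cells. Their part in the ratio was not tested.

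Within single gates the members tested had log2 fold changes below 0 over all mice fitted, with uneven calls, and in the granulocyte progenitor, eosinophil and neutrophil gates most turned above 0 against healthy mouse 1 alone. In granulocyte progenitors 4 of the 8 members tested passed, all lower in sick mice, against 0.307% of 2608 tested genes that were lower: log2 fold changes were -1.77 ± 0.38 for Hba-a1 (adjusted p = 0.0281), -1.93 ± 0.38 for Hba-a2 (0.0257), -1.97 ± 0.41 for Hba-ps4 (0.0257) and -1.37 ± 0.32 for Hbb-bt (0.0354) in edgeR. Hba-a1 had 7028 ± 2056 CPM in these cells of sick mice (SD, n = 5), against 23980 ± 19460 in those of healthy mice (SD, n = 4), and the groups overlapped in each of the 4 genes. No member passed there without sick mouse 3, sick mouse 5, healthy mouse 3 or healthy mouse 4, while 2 passed without sick mouse 1 or healthy mouse 2, 3 without sick mouse 6, 6 without healthy mouse 1 and 7 without sick mouse 4. Against healthy mouse 1 alone the 4 called genes had log2 fold changes of 0.63, 0.65, 0.25 and 0.05.

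Eosinophil cells had 5 calls among 8 members tested (Hba-a2, Hba-ps4, Hbb-bt, Hbb-bh1 and Hbb-bh3, log2 fold changes of -3.25 to -2.37), all lower, against 2.79% of 466 tested genes that were lower, in a fit without healthy mouse 4, which had 14 such cells. No member passed there without any one of sick mice 1, 3, 4 and 5 or healthy mouse 2, 2 did without healthy mouse 3, 6 without sick mouse 6 and 8 without healthy mouse 1. Hba-a2 had 3488 to 19475 CPM in these cells of sick mice, against 7255, 67536 and 70493 in those of healthy mice 1, 2 and 3. Against healthy mouse 1 alone the called genes had log2 fold changes of 0.29 (Hba-a2), -0.45 (Hba-ps4), 0.18 (Hbb-bt), 0.45 (Hbb-bh1) and -0.38 (Hbb-bh3), each with an adjusted p of 0.996 in edgeR. In neutrophil cells 0 of 9 members passed in edgeR, against 0.28% of 3214 tested genes passing lower. There 7 had an unadjusted p under 0.05, against 6.07% of tested genes lower at that p, and 0 passed in DESeq2. In edgeR 7 passed without healthy mouse 1 and 6 without sick mouse 4. All 9 lay above 0 in neutrophil cells against healthy mouse 1 alone, at 0.67 to 1.51. In that mouse Hba-a1, at 4879 CPM, lay below every sick mouse. In monocyte or macrophage cells, fitted without healthy mouse 2 with its 17 cells, 0 of 8 passed in edgeR or DESeq2, against 0.0% of 1954 tested genes passing lower in edgeR, and 8 had an unadjusted p under 0.05, against 3.99% of tested genes. There Hba-a1 (0.37), Hba-a2 (0.16) and Hbb-bs (0.07) turned above 0 against healthy mouse 1 alone.

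In the erythroid gate, the cells that make globin, Hba-ps4 was again the member that passed. It took 0.125%, 0.170%, 0.190%, 0.166% and 0.136% of the counts of these cells in sick mice, against 0.302%, 0.505%, 0.158% and 0.167% in healthy mice. Healthy mice 1 and 2 lay above every sick mouse and healthy mice 3 and 4 within the sick range. It fell by 1.20 on the log2 scale (SE 0.29, adjusted p = 0.0266 in edgeR), against 1.77% of 2930 genes passing in either direction and 0.887% lower. The call did not hold without sick mouse 1 (adjusted p = 0.0556), sick mouse 3 (0.0875), sick mouse 5 (0.0558) or healthy mouse 2 (0.235), nor without TMM scaling (0.0733). Hbb-bh2 passed as well without sick mouse 4 or healthy mouse 4. The other 8 members had log2 fold changes of -0.97 to -0.37 and did not pass. All 9 stayed below 0 against healthy mouse 1 alone, with Hba-ps4 at -1.14 (adjusted p = 0.123).

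Genes that work with globin were read from 8 lists with 81 genes in the file: relatives of the members, haem synthesis, iron supply, the red cell membrane, regulators of the globin loci, late maturation, early erythroid genes and haemoglobin clearance. In the whole joint 78 were tested and 1 passed, Hba-x, the embryonic alpha-type gene, which fell by 1.94 on the log2 scale (SE 0.43, adjusted p = 0.0463 in edgeR). Hba-x had 7.70 ± 2.33 CPM in sick mice (SD, n = 5) and 31.3 ± 23.6 in healthy mice (SD, n = 4), with overlap. The call held in only 1 of the 9 fits that left out 1 mouse, the one without healthy mouse 1 (adjusted p = 0.00298). In the other 8, which left out sick mouse 1, 3, 4, 5 or 6 or healthy mouse 2, 3 or 4, it was 0.0550 to 0.202.

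The median log2 fold change of the 78 genes was -0.34, against -0.02 over all tested genes. The signs within the lists depended on the scaling, which moved the median of all genes to 0.29 without TMM. In haem synthesis 8 of 8 genes lay below 0 with TMM and 2 of 8 without it, and 0 passed, among them Alas2, the first enzyme of the pathway in red cells (-0.90 ± 0.33, adjusted p = 0.236), Fech, which puts iron into the ring (-0.73 ± 0.26, 0.220), and Cpox (-0.35). In iron supply 0 of 9 passed, with the mitochondrial iron importer Slc25a37 at -0.72, the transferrin receptor Tfrc at -0.57, Glrx5 at -0.41 and the ferritin chain Fth1 at 0.49. Of the membrane genes 16 of 16 lay below 0 with TMM and 14 without it, and 0 passed, among them the skeleton protein Epb41 (-1.04, adjusted p = 0.0755), with Gypc at -0.75 and Epb42 at -0.71. Of the late maturation genes 15 of 15 lay below 0 with TMM and 8 without it, and 0 passed, among them Fam46c (-1.20), Bpgm (-1.09), Xpo7 (-0.83) and Bnip3l (-0.82), at adjusted p of 0.107 to 0.174. Against healthy mouse 1 alone 2 of 8 haem synthesis, 5 of 16 membrane and 3 of 15 late maturation genes lay below 0.

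In the remaining lists 0 of 14 regulators passed, with Myb at -0.49, Nfe2 at 0.70, Sox6 at -0.60 and Lmo2 at -0.35. Of the early erythroid genes 0 of 8 passed, with the metallothionein Mt2 at 1.43 (adjusted p = 0.157), Kit at -0.60, Car1 at -0.50 and Rhag at -0.45. Of the clearance genes 0 of 6 tested passed, with haptoglobin, Hp, which binds free haemoglobin, at 0.67 (adjusted p = 0.207), the haem oxygenase Hmox1 at 0.78, Lrp1 at 0.52 and Slc48a1 at -0.24. The theta-type relatives Hbq1b and Hbq1a were at -0.63 and -0.42.

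The genes most alike to the joints' summed globin level were ranked by Pearson's r over the 9 mice. Of the 2481 genes ranked, the log2 CPM of Mkrn1 had a Pearson r of 0.990 with it, Bnip3l 0.983, Slc25a51 0.979, and Fam46c and Tfdp2 0.978 each. Mkrn1, Bnip3l and Fam46c stand on the late maturation list, and Slc25a51 and Tfdp2 on none of the lists. The points share their libraries and the share of red cells in each, so these are descriptions.

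Within globin-rich cells, with the 9 members taken out of the totals, 5 of 70 listed genes passed, against 3.32% of the 5728 genes tested. Abcb10, a mitochondrial transporter of the erythroid cell, rose by 0.90 (SE 0.24, adjusted p = 0.0288), the globin locus regulator Nfe2 by 1.06 (SE 0.28, 0.0318) and Ube2l6, a late maturation gene, by 0.71 (SE 0.20, 0.0488) on the log2 scale in edgeR. Car1, an early erythroid carbonic anhydrase, fell by 1.05 (SE 0.26, adjusted p = 0.0189) and Myb, a regulator of early precursors, by 1.12 (SE 0.31, 0.0371). Ube2l6 had 405 ± 46.3 CPM in sick mice (SD, n = 5) and 251 ± 41.1 in healthy mice (SD, n = 4), every sick mouse above every healthy mouse (2.72% of tested genes), and the groups overlapped in the other 4 genes.

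By list these 5 calls were 1 of 7 iron supply genes, 2 of 14 regulators, 1 of 15 late maturation and 1 of 4 early erythroid genes, and none of 3 relatives, 8 haem synthesis, 16 membrane or 4 clearance genes. The median log2 fold change of the 70 genes was 0.31 and that of all tested genes -0.01. Over fits without 1 mouse the adjusted p ranged from 0.000996 to 0.126 in Abcb10, 0.000191 to 0.155 in Nfe2, 0.00428 to 0.157 in Ube2l6, 0.000713 to 0.110 in Car1 and 0.00434 to 0.138 in Myb, and 0 of the 5 passed without sick mouse 5, healthy mouse 2 or healthy mouse 3. Ube2l6 passed only without healthy mouse 1, Abcb10 was also lost without sick mouse 1, sick mouse 4 or healthy mouse 4, and Car1 also without sick mouse 3. Nfe2 was also lost without sick mouse 1, 3 or 6 or healthy mouse 4, and Myb without sick mouse 1, 3 or 4 or healthy mouse 4. The count was 30 without healthy mouse 1. Against healthy mouse 1 alone their log2 fold changes were 0.35, 0.02, 0.40, -0.24 and -0.05, and 0 genes of the lists passed. The sign within the membrane list turned with those mice: 15 of 16 genes lay above 0 over all mice, and 15 of 16 lay below 0 against healthy mouse 1 alone. The erythroid marker levels and the mitochondrial and ribosomal RNA-like counts given above moved with the same 3 healthy mice, and their part in these calls was not tested.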

How the data were processed

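Seq-Well libraries of whole left knee joints gave the authors' deposited counts, raw whole numbers per gene and cell. Per the submitters' processing notes and the labels' protocols, bcl2fastq, Picard, STAR and the Drop-seq Core Computational Protocol 1.0.1 were used and sequencing rounds of a sample were merged. The builds named there are GRCh38, GRCm38 and mm9, with no role given to each. Read assignment between copies that are near-identical in the reference, and cell filters, are not given in the sources used here. The lowest total of a deposited cell is 397 counts, its lowest gene number 199, and the highest mitochondrial share 19.9%. All 16751 cells were used, and doublets were neither called nor removed.

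Counts were summed per mouse, the replicate, and tested with edgeR 4.0.16's quasi-likelihood test (filterByExpr, TMM, Benjamini-Hochberg adjustment over all tested genes, threshold 0.05) in R 4.3.3 with limma 3.58.1. Fold changes are sick over healthy. Globin-rich cells have 30% or more globin counts, and the members were left out of sums and totals in their fit, since they define those cells. The members were kept in the fit of the other cells, though the same line defines these. Ratios had 0.5 added to each sum and were tested by two-sided exact permutation of the mice, or exact sign flips within mice. Cells were gated by setting marker counts against those expected from the markers' share of the mouse's non-globin counts (at least 2 markers detected, at least 2 times the expected count, Poisson log likelihood ratio of at least 4 and at least 2 times that of the next class), and mice with under 20 cells of a class were left out of its fit. The gates, built after the values were seen, use no globin gene. Python 3.11.15, numpy 2.4.6, scipy 1.17.1, pandas 2.3.3, matplotlib 3.10.9 and Biopython 1.88 were used, and the fits were tested on simulated data.

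All members are named, and of each list up to 4 genes with the lowest p in the whole joint, with the 5 genes of at least 50 CPM most correlated with summed globin. The listed genes called in globin-rich cells were named after their values were seen. Members, lists and markers were chosen with earlier results of these data known. Alternatives were DESeq2 1.42.0, no TMM, no filter on low counts, a replicate block, other gates and cell sets, and leaving out mice. The settings without healthy mice 2, 3 and 4 for ratios, those limited to cells with 2 or more erythroid markers, and gated cells under 30% globin counts were added after the data were seen. Sequences are from the GRCm38 genome and GENCODE M21. Ngb, Ahsp and Hpx were not analysed here, and some genes that the rule names are not reported here.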

Additional observations from a re-analysis of the deposited data

Results flagged for a closer look

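In 2 mice a value stood farther from the rest of its group than a limit that chance passes in about 1 in 20 groups, 14 times in the 90 groups examined. The 14 are not independent, since the genes and ratios share counts.

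Sick mouse 4 stood apart in embryonic and minor beta-like genes. In its globin-rich cells Hbb-bh1 took 1.087% of counts (0.490% to 0.616% in the other sick mice) and Hbb-bh3 took 0.4953% (0.205% to 0.281%). In its other cells Hbb-y took 0.06972% (0.0135% to 0.0260%), Hbb-bh1 0.1414% (0.0318% to 0.0541%), Hbb-bh2 0.007818% (0.00104% to 0.00232%) and Hbb-bh3 0.06336% (0.0110% to 0.0234%).

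The ratios of sick mouse 4 followed. Its embryonic counts per 1000 adult beta counts were 42.01 in globin-rich cells (18.1 to 23.1 in the other sick mice) and 26.38 in other cells (10.2 to 12.4). Its alpha to beta ratio was 0.2047 in globin-rich cells (0.288 to 0.308) and 0.1234 in other cells (0.169 to 0.177). Per 1000 adult beta counts it had 27.82 of Hbb-bh1 (12.2 to 15.3) and 12.67 of Hbb-bh3 (5.33 to 6.89).

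Healthy mouse 1 stood apart in its globin-rich cells, where Hbb-bs took 38.56% of counts (31.6% to 31.7% in the other healthy mice) and all 9 globin genes 58.19% (47.7% to 49.3%).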

How the results depend on the processing

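Leaving out 1 mouse at a time gave 0 to 5 members called in the whole joint and in other cells, 0 to 7 in neutrophil and in granulocyte progenitor cells, 0 to 8 in eosinophil and 0 to 2 in erythroid-gated cells. Listed genes called ranged from 0 to 9 in the whole joint and 0 to 30 in globin-rich cells, and all genes called from 53 to 257 and from 75 to 792. The share of globin-rich cells differed by -40.97 to -23.98 points. The sign turned once each for Hbb-y in the erythroid gate (range -0.6764 to 0.03146), and for Hbq1a (-0.8266 to 0.0003186) and Lrp1 (-0.09359 to 0.6767) in the whole joint. In globin-rich cells the log2 difference of alpha to beta turned to 0.06012 without sick mouse 4, and that of embryonic to adult beta to 0.05046 and 0.09204 without healthy mouse 1 or 2.

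Against healthy mouse 1 alone, assumed to vary like the sick mice, the share difference was 5.141 points, that of globin counts 2.131 points, and the log2 differences of alpha to beta and embryonic to adult beta 0.1517 and -0.6. There 0 members passed in the whole joint, other, granulocyte progenitor, eosinophil and erythroid cells, 0 listed genes in the whole joint or globin-rich cells, and 12 and 10 of all genes. Signs turned in the whole joint for Hba-a1 (0.5302), Hba-a2 (0.4432), Hbb-bs (0.3263), Hbb-bt (0.1363), Alas2 (0.1993), Car1 (0.2526), Cpox (0.3504), Epb42 (0.0833), Glrx5 (0.3069), Hbq1a (1.211), Rhag (0.2181), Tfrc (0.1531) and Xpo7 (0.04754). They turned in other cells for Hba-a1 (0.6445), Hba-a2 (0.5414), Hbb-bs (0.3874), Hbb-bt (0.2213), Hbb-y (0.4998), Hbb-bh1 (0.5105), Hbb-bh2 (0.4291) and Hbb-bh3 (0.6258). In granulocyte progenitors they turned for Hba-a1 (0.6325), Hba-a2 (0.6481), Hba-ps4 (0.2452), Hbb-bs (0.2654), Hbb-bt (0.04787), Hbb-y (0.01811), Hbb-bh1 (0.1922) and Hbb-bh3 (0.4187). In eosinophil cells they turned for Hba-a1 (0.6049), Hba-a2 (0.2866), Hbb-bs (0.321), Hbb-bt (0.1822), Hbb-y (0.2576) and Hbb-bh1 (0.452). In neutrophil cells they turned for Hba-a1 (1.325), Hba-a2 (1.264), Hba-ps4 (0.788), Hbb-bs (0.7215), Hbb-bt (0.6682), Hbb-y (1.507), Hbb-bh1 (1.188), Hbb-bh2 (0.845) and Hbb-bh3 (0.8512), and in monocytes or macrophages for Hba-a1 (0.3724), Hba-a2 (0.163) and Hbb-bs (0.07464).

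Without the filter on low counts 5 members passed in the whole joint and in other cells and 2 in neutrophils, 5 listed genes in the whole joint, and 282 and 289 of all genes in the whole joint and globin-rich cells. DESeq2 called 2 members in other cells, 1 in granulocyte progenitors and 2 in eosinophils, 3 listed genes and 252 of all genes in the whole joint. Without TMM 0 members passed in eosinophil and erythroid cells, 0 listed genes in the whole joint and 3 in globin-rich cells, and Cpox (0.003614) and Slc48a1 (0.05649) turned sign. The calls higher and lower in sick mice were 65 and 31 in the whole joint with TMM, 108 and 18 without it, and 95 and 95 against 124 and 40 in globin-rich cells. In cells with at least 400 genes 51 genes and 0 listed genes passed, and the share difference was -15.81 points. It was -33.9 points with the line at 20%, -6.438 at 50% and -23.29 over cells with erythroid markers. Hba-a1 to Hba-a2 in globin-rich cells was 0.08748 at 50%, and its difference between other and globin-rich cells turned to -0.07947, -0.0555 and -0.03786 in gated cells, cells under 10% and gated cells under 30%. The cause of these changes was not tested.

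Mouse numbers 1, 3 and 4 occur in both groups, and the deviations of same-numbered mice correlated at 0.173, -0.0478 and 0.0701. These values cannot decide whether the numbers pair the mice. A replicate block gave 5 members and 5 listed genes in the whole joint, 0 members in granulocyte progenitor and erythroid cells and 8 in monocytes or macrophages. With that block only same-numbered mice inform the group difference, so these calls rest on mice 1, 3 and 4 of both groups. Depth limits Hbb-bh2 most, with 18 to 86 counts in the other cells of a mouse.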
